A study of Homo sapiens with 2 samples.

Results

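GADD45A, GADD45B, GADD45G and PPP1R15A, the gene of GADD34, are a group of growth arrest and DNA damage genes. They were chosen by name and with earlier results of these arrays known, after the signal of GADD45B had been seen, so all values below are a description. The rule took each probe set whose annotation gives exactly 1 of these 4 symbols, which found 8 of 54675 probe sets, and 4 of 19775 named genes. Of the 4 genes 3 passed a filter on dim signals, GADD45A, GADD45B and PPP1R15A, and of the 8 probe sets 7 did. HEK293T is an established line from human embryonic kidney with the large T antigen of a simian virus. Both groups were HEK293T cells transfected with polyethylenimine and sorted for GFP 48 h later, the GFP control with pcDNA3.1-GFP and the other group with pcDNA3.1-IRX1::GFP, a fusion of the homeobox transcription factor IRX1 to GFP. The expression was transient, and both groups share the transfection and the sort. The comparison asks which genes differ when IRX1 is expressed.

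GADD45 proteins are small acidic proteins without known enzyme activity that act by binding others. They bind MAP3K4 and thereby switch on the p38 and JNK stress kinases, they bind CDK1 and PCNA in growth arrest and DNA repair, and they take part in active DNA demethylation. GADD45A responds to DNA damage, GADD45B responds to NF-kB, TGF-beta and early growth signals, and GADD45G to cytokines. GADD34 is not of this protein family. It brings protein phosphatase 1 to the translation factor eIF2 and removes the phosphate that stress kinases put there, and its own gene is switched on by ATF4 in the integrated stress response.

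The promoters of GADD45B and PPP1R15A are shown because both genes gave signals above background while their ratios between the arrays differed. The 250 bases before the annotated start are given, from RefSeq, GRCh38.p14, plus strand, 5′ to 3′, chr19:2475877-2476126 for GADD45B and chr19:48872171-48872420 for PPP1R15A. Capitals mark the matches of the motifs named below.

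GADD45B: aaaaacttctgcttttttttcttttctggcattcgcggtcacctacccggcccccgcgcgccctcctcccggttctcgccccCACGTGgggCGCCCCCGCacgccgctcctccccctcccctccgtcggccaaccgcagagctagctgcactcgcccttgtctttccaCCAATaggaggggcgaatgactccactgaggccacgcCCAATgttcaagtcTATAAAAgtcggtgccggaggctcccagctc

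PPP1R15A: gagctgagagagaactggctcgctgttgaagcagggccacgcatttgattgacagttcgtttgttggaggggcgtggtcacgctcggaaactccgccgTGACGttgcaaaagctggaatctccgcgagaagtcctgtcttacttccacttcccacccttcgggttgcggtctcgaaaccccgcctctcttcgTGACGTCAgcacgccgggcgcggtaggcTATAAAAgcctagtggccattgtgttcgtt

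Letters were searched on both strands of the window from 250 bases before to 50 bases after the start, and shares refer to 35116 RefSeq promoters of that length. The GADD45B window held 1 match to the EGR motif, GCGTGGGCG or GCGGGGGCG, from -159 to -151 and on the minus strand, which 5.77% of all promoters held. The PPP1R15A window held the cyclic AMP response element TGACGTCA from -58 to -51, as did 1.85% of all promoters. Its core TGACG occurred there on both strands, overlapping that match, and again at -152 to -148, and 24.6% of all promoters held this core. In the GADD45G window, TGATGNAA, the site of ATF4 with C/EBP, was found once, on the minus strand from -102 to -95, against 3.62% of all promoters. These motifs are known binding sites, and a match of letters is not shown to be bound. TATAAAA lay from -31 to -25 in GADD45B and from -30 to -24 in PPP1R15A, and 4.52% of all promoters held it. CCAAT was found 2 times in GADD45B and 1 time in GADD45G, and 34.6% of all promoters held it. CACGTG was found 1 time in each of these 2 windows, against 7.26%. These last 3 motifs were searched after the sequences had been seen. TGANTCA (AP-1), GAANNTTC or TTCNNGAA (heat shock element), and ACANNTGT (Iroquois factors) had no match in the 3 windows, and 7.71%, 13.5% and 5.62% of all promoters held them. The GADD45B window had 27 CG dinucleotides, that of GADD45G 25 and that of PPP1R15A 24, while the median over all promoters was 14. GADD45A was not in the table.

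The values are MAS5 signals, an intensity per probe set on a linear scale, and ratios are those of IRX1::GFP to GFP control, on the log2 scale. Where a pair of signals is given, the GFP control comes first. The signals of different probe sets do not rank genes by their RNA. With 1 array per condition, no error between cultures and no p-value can be given, and whether an array holds 1 culture or a pool is not given in the sources used here. Replicates of the hybridization are stated in the study's legend, while a single array per condition was analysed here. Within this pair of arrays, probe sets of the same gene had an SD of 0.49 in log2 ratio (5930 genes), a spread that holds no difference between cultures. Background, the 90th percentile over olfactory receptor probe sets, was 143 on the GFP control array and 179 on the other. Over 12193 genes with a mean signal of at least 183 the median log2 ratio was 0.07. RNA quality, read as the 3-prime over the 5-prime signal of ACTB, differed between the arrays, at 3.23 for the GFP control and 1.64 for IRX1::GFP. The same measure for GAPDH differed less, at 1.22 and 1.01. The control probe sets of ACTB and GAPDH had log2 ratios of 0.21 to 1.24. Of 8 genes known from HEK293 lines all passed the filter, at a median log2 ratio of 0.89. NEFL and KRT18 were at least 2-fold higher, and LIN28B was lower, at 8740 and 1436. PAX2 read 134, under background, and 278, so it was at least 1.94-fold higher. Over all genes 10.4% were higher by 2-fold or more and 5.34% lower by as much. The summed signal of the 8 genes, 59321 and 55896, was mostly that of VIM, at 38213 and 28168. Of 7 blood cell markers 5 were above background on at least 1 array, at a summed signal of 1951 and 2638. Of the 4 past the filter CD14 was at least 2-fold higher, at 327 and 856, beside 10.4% of all genes. ITGAM, with the largest signal of these markers, read 838 and 976, and HBB read 242 and 263. CD3E read 244 and 168, the second under background. CD79A, which did not pass the filter, read 94.2, under background, and 256. PTPRC, which marks all white blood cells, read 76.9 and 71.4, both under background. The part of RNA quality and of these markers in the results below was not tested. The IRX1 probe set itself read 33.1 and 57, under background on both arrays, so it does not check the labels.

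GADD45B was the only one of the 3 genes past the filter that was at least 2-fold different between the arrays. It was 12.4-fold higher with IRX1::GFP on its brightest probe set, and the other 3 probe sets were higher too, by 13.2-fold, 16.2-fold and 3.12-fold. The brightest, 207574_s_at, read 2613 without and 32286 with IRX1::GFP, and its log2 ratio was 3.63. Probe set 209305_s_at read 1387 and 18256, a log2 ratio of 3.72. Probe set 209304_x_at read 970 and 15699, a log2 ratio of 4.02. All 3 signals in the GFP control were well over the background of 143, so these folds are measured on both sides. The dimmest, 213560_at, read 304 and 947, a log2 ratio of 1.64. It was the only one of the 4 without a suffix for probes shared with other sequences (_s_at or _x_at), and why it differs from the others was not tested. The 4 log2 ratios had a mean of 3.25 and an SD of 1.09 (n = 4 probe sets of 1 gene, which are not replicates), a wider spread than the 0.49 seen over all genes. In a bulk sample, more RNA per cell and more cells with that RNA cannot be told apart.

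**Figure D1:**
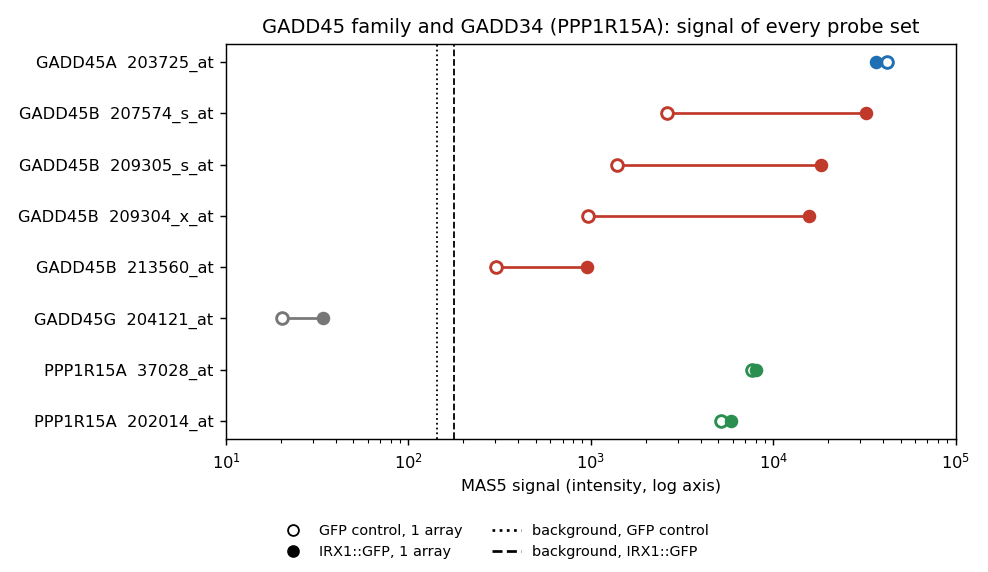
MAS5 signal on a log axis (x) of the 8 probe sets of the 4 genes (y), 1 array per condition, with open points for the GFP control, filled points for IRX1::GFP, and lines at the background of each array, 143 and 179. The 4 GADD45B probe sets move to the right with IRX1::GFP, those of GADD45A and PPP1R15A nearly coincide, and GADD45G lies left of both background lines.

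Seen against all genes, GADD45B stood near the upper end. Its log2 ratio of 3.63 was the 43rd highest of 12193 genes, and the 6th of the 11668 with both signals above background. Among the 12193 genes 10.4% were higher by 2-fold or more and 5.34% lower by as much. These are 1267 and 651 genes, and after median centring 1047 and 850. Counted by probe sets, 4 of the 7 that passed the filter were at least 2-fold higher, all of GADD45B, beside 9.65% of all 27307 probe sets that passed it. At 4-fold or more there were 3, all of GADD45B, beside 1.43% of all. The choice of the group used this contrast, so nothing is read from these counts. Within the GFP control array the brightest GADD45B probe set lay at percentile 87.3 of all signals, and within the IRX1::GFP array at percentile 99.1, a measure that needs no scaling between the arrays. The study also singled out GADD45B in the same experiment, and its value here is not independent of that choice.

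GADD45A, the member known for its response to DNA damage, was measured by a single probe set, 203725_at. Its signal was 41916 for the GFP control and 36637 for IRX1::GFP, 1.14-fold lower, a log2 ratio of -0.19. This difference is below 0.49, the SD over probe sets of the same gene. The probe set was among the brightest of both arrays, at rank 300 of 54675 for the GFP control and rank 421 for IRX1::GFP, and whether a rise would be compressed at such signals was not tested.

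GADD45G, the cytokine-responsive member, was measured by 204121_at alone, which read 20.3 for the GFP control and 33.9 for IRX1::GFP. Both signals were under background, so no fold is given, and the gene did not pass the filter. GADD45G was not detectable above background in either array.

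PPP1R15A, which encodes GADD34, had nearly equal signals in both arrays on each of its 2 probe sets. Probe set 37028_at read 7699 for the GFP control and 8039 for IRX1::GFP, a log2 ratio of 0.06, which is -0.05 after median centring. Probe set 202014_at read 5180 and 5862, a log2 ratio of 0.18. Both differences lie within the SD of 0.49 between probe sets of a gene. The brighter probe set lay at rank 6186 of 12193 genes by log2 ratio, in the middle of all genes.

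**Figure D2:**
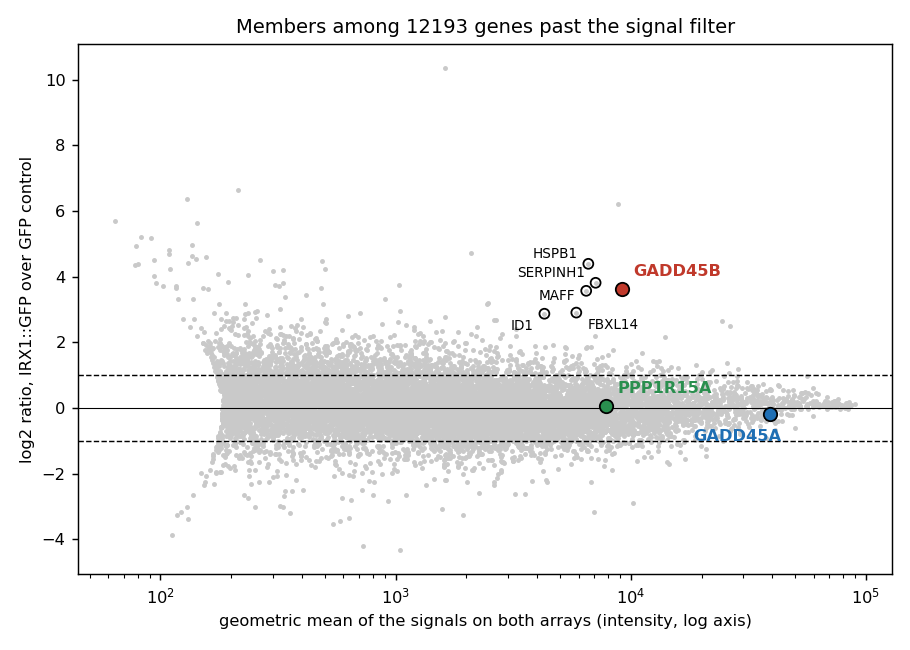
Each point is 1 of 12193 genes past the filter, placed by mean signal (x, geometric, log axis) and by log2 ratio, IRX1::GFP to GFP control (y), with dashed lines at 2-fold and 1 array per condition. GADD45B lies at 3.63, far above the upper line with its 5 nearest genes (open circles), while PPP1R15A at 0.06 and GADD45A at -0.19 lie near 0.

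The 5 genes closest to GADD45B in mean log2 signal and log2 ratio together, over both arrays, were SERPINH1, MAFF, HSPB1, FBXL14 and ID1. SERPINH1, which encodes a collagen chaperone, read 1892 for the GFP control and 26578 for IRX1::GFP, at a distance of 0.42 on the log2 scale. MAFF, a small MAF transcription factor, read 1878 and 22271, at a distance of 0.51. HSPB1, a small heat shock protein, read 1442 and 30242, at a distance of 0.90. All 3 were more than 10-fold higher with IRX1::GFP, but they were picked for a ratio near that of GADD45B. FBXL14, an F-box protein, read 2145 and 16063, at 0.97, and ID1, an inhibitor of bHLH factors, read 1588 and 11614, at 1.33. This closeness rests on 2 arrays.

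The binding partners of the GADD45 proteins were within 2-fold. Of 12 listed partners 11 passed the filter, and none differed by 2-fold, at a median log2 ratio of -0.08. With 10.4% of all genes higher and 5.34% lower, a count of 0 in so short a list says little about the partners. MAP3K4, the kinase through which GADD45 proteins reach p38 and JNK, read 1980 and 1694, and its second probe set 1950 and 1185. The mitotic kinase CDK1 read 17288 and 11078, a log2 ratio of -0.64, and its cyclin CCNB1 read 10475 and 9923. PCNA, the sliding clamp of DNA polymerase, read 42911 and 38649, and the cell cycle inhibitor CDKN1A 9178 and 9279. These are all within 2-fold. GADD45GIP1, named for its binding to GADD45 proteins and part of the mitochondrial ribosome, read 2319 and 3764, and AURKA, another mitotic kinase, 6184 and 10422. Of the partners in DNA demethylation and repair, TDG, a DNA glycosylase, read 11949 and 7335 on its brighter probe set, with a log2 ratio of -0.70, and 0.79 on the other, so its direction depends on the probe set. ERCC5, a repair nuclease, read 911 and 830. Downstream, 11 of 15 genes of the p38 and JNK cascade passed the filter, and none differed by 2-fold, which at the same shares over all genes says as little. The median log2 ratio was -0.04, and by brightest probe sets the largest size was that of MAP2K4, a JNK kinase, at 3212 and 2026. Its log2 ratio was -0.66, while dimmer probe sets of MAP3K4 and MAPK9 gave -0.72 and 0.88. MAP2K7 and MAPK14 were not analysed here.

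The genes around GADD34 were likewise within 2-fold. All 16 listed genes of the eIF2 phosphatase, eIF2, its kinases and its exchange factor passed the filter, with a median log2 ratio of 0.05. With 10.4% of all genes higher and 5.34% lower, a count of 0 in a list of 16 says little about these genes. PPP1R15B, the other adaptor that brings the phosphatase to eIF2, read 9257 and 6263, a log2 ratio of -0.56. Of the catalytic subunits, PPP1CA read 7448 and 11902, PPP1CC 27439 and 27802, and PPP1CB 7666 and 4448. PPP1CA was thus on the higher and PPP1CB on the lower side, neither at 2-fold. EIF2S1, the subunit that carries the phosphate, read 15515 and 7914, close to 2-fold lower at a log2 ratio of -0.97, and its other probe sets gave -0.57 and -0.14. EIF2AK3, the eIF2 kinase of the endoplasmic reticulum, read 4563 and 3301. The exchange factor genes EIF2B4 and EIF2B5 were within 2-fold on their brighter probe sets, at log2 ratios of 0.58 and 0.11, while a dimmer one of each gave 1.15 and 1.40.

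The targets of the integrated stress response, the program that switches on PPP1R15A, were not higher by 2-fold. Of 13 listed genes, which all passed the filter, none was at least 2-fold higher and 1 was lower, CEBPB, a transcription factor, from 12361 to 5003. Over all genes 10.4% were higher and 5.34% lower, so in a list of this size these counts are not set apart. The median log2 ratio was -0.32. ATF4, the factor at the head of this response, read 50058 and 60016. DDIT3, the gene of CHOP, which is known to activate PPP1R15A, read 18393 and 14672. ATF3 read 51217 and 27335, a log2 ratio of -0.91, and its other probe sets gave -0.87 and -0.30. PPP1R15A, at 0.06, lay above the median of this list. TRIB3, which ATF4 and CHOP activate, read 2787 and 3931, and its other probe set gave a log2 ratio of 0.996, close to 2-fold higher. CHAC1, an enzyme of glutathione breakdown, read 1640 and 1334.

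**Figure D3:**
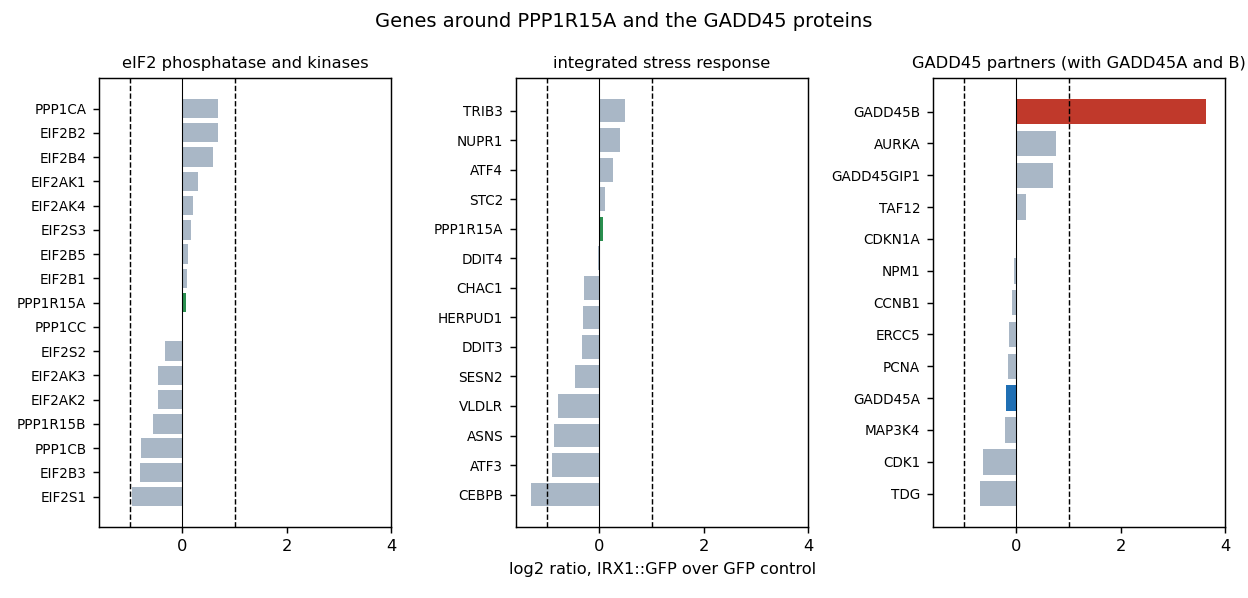
Bars give log2 ratios, IRX1::GFP to GFP control (x), for genes past the filter (y) of 3 lists, with PPP1R15A in green, GADD45A in blue, GADD45B in red, dashed lines at 2-fold and 1 array per condition. GADD45B at 3.63 is the only bar beyond 2-fold higher, and CEBPB at -1.30 the only bar beyond 2-fold lower.

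Transcription factors that act on the GADD45 promoters differed in direction. Of 15 that passed the filter, 2 (13.3%) were at least 2-fold higher and 1 was lower, near the 10.4% and 5.34% of all genes, and the median log2 ratio was -0.28. EGR1, an early growth response factor, was higher on all 3 of its probe sets, the brightest at 3598 and 8988. The GADD45B promoter matched the motif of its family, as did 5.77% of all promoters. Whether EGR1 acted on GADD45B here was not tested. SMAD3, which carries TGF-beta signals, read 252 and 639. NFYC, a subunit of the factor that binds CCAAT boxes, was lower, at 3055 and 1340, though not by 2-fold as the mean over its probe sets. FOXO3, which activates GADD45A, read 9354 and 7723. The NF-kB subunits differed little in RELA, at 4242 and 4558, while NFKB1 read 1159 and 611, a log2 ratio of -0.92.

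Among the targets of NF-kB, 8 of 15 listed genes passed the filter. IER3, an early survival gene, was at least 2-fold higher, at 2382 and 9081, and none was lower. This is 12.5% of the 8, near the 10.4% of all genes, and the median log2 ratio was 0.52. NFKBIA, the inhibitor that NF-kB itself induces, read 824 and 1193. TNFAIP3, another feedback inhibitor, read 544 and 790 on its brightest probe set, while the other gave a log2 ratio of 2.78. The chemokine genes CXCL8, at 77.2 and 62.5, and CCL20, at 6.25 and 10.5, were under background on both arrays.

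Immediate early genes and heat shock genes held the largest shares of higher genes among the lists of pathways. Of 29 immediate early genes that passed the filter, 13 (44.8%) were higher by 2-fold or more, beside 10.4% of all genes, and 2 were lower. Their median log2 ratio was 0.81, beside 0.07 over all genes. FOSB, an AP-1 subunit, was under background at 21.4 in the GFP control and read 2136 for IRX1::GFP, at least 14.9-fold higher. EGR3 read 281 and 3781, FOS 1062 and 6777, and NR4A1, an orphan nuclear receptor, 161 and 730. The lower ones were TIPARP, a mono-ADP-ribosyltransferase, at 7141 and 2421, and KLF6, a zinc finger factor, at 6643 and 3252. KLF6 was past 2-fold on only 1 of its 4 probe sets past the filter, whose log2 ratios ran from -1.03 to -0.35. Of 10 heat shock genes 5 were at least 2-fold higher and 1 was 2-fold or more lower, at a median log2 ratio of 0.82. With probe sets ending in _at alone, 1 heat shock gene was at least 2-fold higher. HSPA6, a strictly stress-induced chaperone, read 1021 and 76345, and DNAJB1, a co-chaperone, 9746 and 61397. HSPE1, the mitochondrial co-chaperonin, read 15894 and 41208, while HSPA4L read 3362 and 1025. Of the immediate early genes above background on both arrays, EGR3 had a larger log2 ratio than GADD45B, at 3.75. FOSB, at least 14.9-fold higher, also lay above the 12.4-fold of GADD45B. Of the heat shock genes SERPINH1, HSPB1 and HSPA6 had larger log2 ratios than GADD45B, at 3.81, 4.39 and 6.22. These lists were chosen with their values known, and nothing particular to them is read from the counts. Differences between the cultures or their sorting cannot be told apart from differences between the plasmids.

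**Figure D4:**
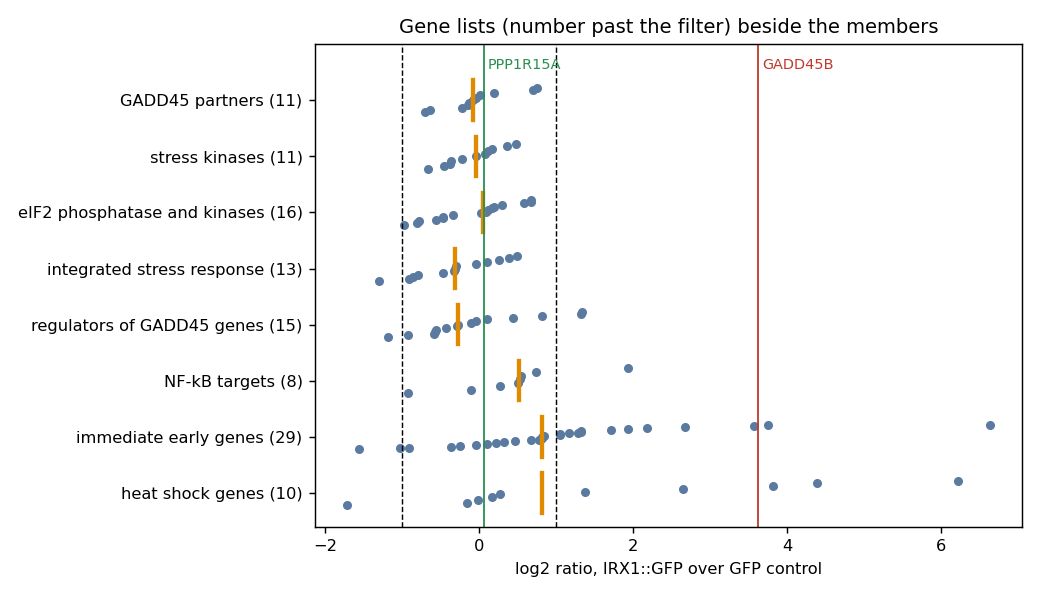
Points give log2 ratios, IRX1::GFP to GFP control (x), for genes past the filter in 8 lists (y, with their number), orange bars the medians, dashed lines 2-fold, and vertical lines GADD45B and PPP1R15A, with 1 array per condition. No partner, stress kinase, eIF2 or integrated stress response gene lies beyond 2-fold higher, whereas the medians of the immediate early genes, 0.81, and heat shock genes, 0.82, lie to the right. The rightmost immediate early gene, FOSB, was under background in the GFP control, so its point is no measured ratio.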

How the data were processed

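RNA of GFP-sorted HEK293T cells was measured on HG-U133 Plus 2.0 arrays, 1 array per condition. The intensity values that the authors deposited are linear MAS5 signals, scaled by them within an array. The submitters' processing notes name MAS5 without a version, and no source used here gives the target value. Trimmed by 2% at each end, the mean was 1000 on both arrays.

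Names of the 54675 probe sets came from the annotation of the platform, which gives 41097 of them a single symbol. The 1801 with several symbols were left unnamed, and 11777 have none in it. The RefSeq gene table (GRCh38.p14) held 41043 of the single-symbol probe sets and gave current symbols. Each gene took the value of its brightest probe set. The filter was the 50th percentile of the mean signal over probe sets that are not controls, and the 90th percentile over 107 probe sets of olfactory receptors served as background of an array. No test was made, since each condition has 1 array. The genes, the 11 gene lists and the rule for named genes were chosen with earlier results of these data known. That rule took every probe set of the 4 genes, up to 6 genes per list with the largest changes of at least 2-fold, 20 genes fixed for their role next to the 4, and the 5 genes nearest to GADD45B in mean log2 signal and log2 ratio. The result of 1 list and the genes named for it are not reported here. Other genes were named as members of the lists, some of them after their values were seen. Promoters came from RefSeq, GRCh38.p14. The steps were tested on simulated data. As alternatives, the arrays were scaled by median centring, by quantile normalization and by loess (span 0.3). Others were filtering at the 75th percentile or not at all, raising low signals to the 50th percentile, averaging over probe sets, and keeping only probe sets ending in _at without a further suffix. Python 3.11.15, numpy 2.4.6, pandas 2.3.3, statsmodels 0.14.6 and matplotlib 3.10.9 were used.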

Additional observations from a re-analysis of the deposited data

How the results depend on the processing

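The direction of GADD45B and of GADD45A was the same under all 8 alternatives, but part of this was fixed in advance. As GADD45A has a single bright probe set, only the scalings could move its value. Under the filters, the floor, the mean over probe sets and _at alone it stayed at -0.19. The value of GADD45B likewise could not move with either filter or the floor. The log2 ratio of GADD45B ran from 1.64 to 3.64 and was past 2-fold in each. The lowest, 1.64, came with only probe sets ending in _at, which leaves 213560_at alone, and the count of probe sets of the group at least 2-fold higher was then 1 in place of 4. With a filter at the 75th percentile that count was 3, and for the mean over probe sets it has no value. The log2 ratio of GADD45A ran from -0.35 to -0.19 and that of PPP1R15A from -0.05 to 0.12, both within 2-fold throughout. GADD45G was under background, so its ratio was not recomputed. Median centring took 0.11 off every log2 ratio, and 1047 genes were then at least 2-fold higher and 850 lower, in place of 1267 and 651. Unfiltered, these counts were 3456 and 1983, and filtered at the 75th percentile 513 and 415. Of 176 list counts recomputed, 156 were equal or stayed within 1.5 times. Many of the equal ones were 0 under both settings, among them all counts of the partners and stress kinases. The number 156 therefore says little about stability. Among the other 20, the counts of lower genes after median centring were 1 in place of 0 for the eIF2 list, 2 in place of 1 for the integrated stress response (2 also after quantile normalization), 2 in place of 1 for the regulators and 1 in place of 0 for NF-kB targets. With only _at probe sets the higher and lower counts were 1 and 0 in place of 2 and 1 for the regulators, 0 in place of 1 higher for NF-kB and 1 in place of 5 higher for heat shock genes. With the mean over probe sets no regulator was lower, 2 NF-kB targets were higher and 1 immediate early gene was lower, as after loess. With no filter 3 NF-kB targets were higher, and 2 blood cell markers were higher and 1 lower, in place of 1 and 0. With the filter at the 75th percentile 1 regulator and no blood cell marker was higher. The cause of these moves was not tested, other than fewer or more probe sets entering. No array was left out, and no test or paired analysis was possible, as each condition has 1 array. The number of arrays limits the precision.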
